A study of Homo sapiens with 30 samples.

Results

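The comparison described here set the SH-EP line carrying WT MYCN against its parental line under vehicle treatment. It used 6 of the 30 RNA-Seq libraries of the series, 3 of the MYCN WT line in DMSO and 3 of SH-EP in DMSO, chosen by their labels alone. SH-EP is an established human neuroblastoma (NB) cell line without MYCN amplification that the study classes as mesenchymal. The WT line was derived from it by stable retroviral expression of WT MYCN, so the gene was driven by a promoter other than its own, and only 1 such line was sequenced. Whether that line is a clone or a pool of transduced cells is not given in the sources used here. By the labels SH-EP carried no exogenous MYC, and both lines were grown in DMEM with 10% FBS and given DMSO for 6 hours before total RNA was taken. Also given for comparison are the 3 libraries of each line treated with 1 µM CYC065, an inhibitor of CDK9 and CDK2, for 6 hours. The text further uses the 9 DMSO libraries of 3 further SH-EP lines that carry T58A, S62A or T58A S62A MYCN. In these forms of MYCN the phosphorylation sites that control the stability of the protein are changed.

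MYCN is a transcription factor (TF) of the MYC family. It binds DNA as a dimer with MAX, preferentially at E-boxes, whose canonical form is the palindrome CACGTG, and its genomic amplification marks high-risk NB. MYC family proteins are known for raising genes of ribosome production, nucleotide synthesis and metabolism, and at high levels they occupy most active promoters. NB cells occur in an adrenergic state, close to sympathetic neuroblasts, and in a mesenchymal state, closer to neural crest and rich in matrix and migration genes, and each state is held by TFs that form a core regulatory circuitry (CRC).

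Levels are given in FPKM, a fragment count scaled to transcript length and library size, as deposited. Means are given ± SD over 3 libraries (n = 3), from SH-EP to WT. Changes are differences in log2(FPKM + 0.1) of WT minus SH-EP with their SE, from limma over the 11575 genes whose mean level reached 1 FPKM. A gene was called past the threshold at a Benjamini-Hochberg adjusted p under 0.05. The level filter and the estimate of spread were taken over all 30 libraries of the series. On this scale the change of low genes is understated. Library numbers follow the order of the table and not the labels' replicate numbers. No source says whether the 3 libraries of a line came from separate cultures, so the p-values measure the spread between these libraries, which may be technical. Read depth is unknown. Read from the steps between the lowest levels, relative depth was 0.53 to 1 in the WT libraries and 0.681 to 0.892 in SH-EP, and 40.6% to 43.3% of the listed genes were at 0 in a library. By the labels, 3 of the 3 SH-EP libraries carried an index sequence that a MYCN-line library also carried. For 0 of the 3 WT libraries was the index used by another library. These indexes do not show whether the WT and SH-EP libraries shared a pool. If they did not, an effect of the pool could not be told apart from one of the line.

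Spike-in RNAs had been added in proportion to cell number, but the FPKM values were not scaled to them. Spike-ins made up 3.58%, 6.01% and 5.79% of the summed FPKM in the WT libraries and 2.29%, 2.08% and 1.99% in SH-EP. Scaling each library to its spike-ins moved the median log2 change of all tested genes from 0.071 to -1.16, a shift of -1.24, so that many genes higher in WT as deposited read as lower once scaled. Directions below are therefore relative to the other RNAs of the same library. The value after spike-in scaling is given where it turns the sign of a list median or of a log2 change from SH-EP printed for a gene in DMSO. Genes described only by their difference from the other MYCN lines are given as deposited. The share of the 6270 genes past the threshold that were higher in WT was 58.3% as deposited, and the share among 10354 genes was 1.11% after spike-in scaling.

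Of the 11575 genes tested, 6270 (54.2%) passed the threshold, 3658 (31.6%) higher and 2612 (22.6%) lower in WT. The median absolute log2 change over all tested genes, called or not, was 0.35, and 2855 of the 6270 genes past the threshold differed at least 1.5-fold. At least 2-fold and past the threshold were 1043 genes (9.01%), of which 422 (3.65%) were higher and 621 (5.37%) lower. The counts of each list below are to be read beside these shares of all genes. Among the 422 genes, 87 were higher by at least 4-fold and 36 by at least 8-fold, and among the 621 genes, 142 and 38 were lower by as much. The libraries of the lines did not overlap for 415 of the 422 and 617 of the 621, so a lack of overlap is common to such genes. A further 195 genes differed at least 2-fold without passing, of which 125 were small RNA symbols. The 2-fold genes were more frequent among low genes, at 14.6% of those with 1 to 5 FPKM against 5.24% of those at 100 FPKM and over. After spike-in scaling, 104 of the 422 remained higher and past the threshold, and 621 of the 621 remained lower.

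**Figure D1:**
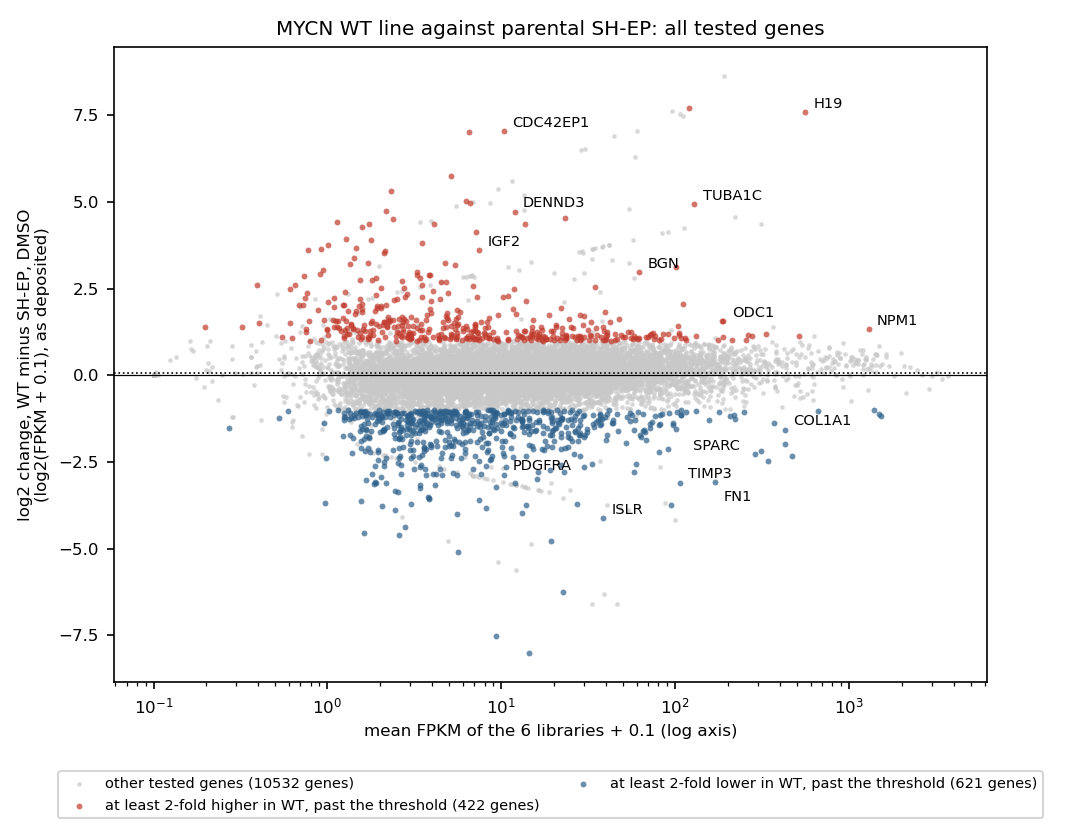
Each point is 1 of 11575 tested genes, with its mean FPKM in the 6 libraries plus 0.1 (log axis) against its log2 change of WT minus SH-EP as deposited. The 422 red genes were at least 2-fold higher and the 621 blue genes at least 2-fold lower past the threshold, the dotted line is the median of all genes (0.071), and with spike-in scaling that median is -1.16.

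MYCN itself (chromosome 2, 16080672 to 16087129, plus strand, GRCh37, protein coding) was read at 13.3, 13.7 and 11.7 FPKM in the WT libraries and was listed at 0 in all 3 SH-EP libraries, in keeping with the labels, and no fold against 0 is given. The values do not separate exogenous from endogenous transcript. MYC (chromosome 8, 128747680 to 128755197, plus strand), the paralog that SH-EP expresses, was at 1.13, 0.995 and 0.992 FPKM in the WT line and 5.51, 4.64 and 4.68 FPKM in SH-EP. The groups did not overlap, and MYC fell in WT (log2 change -2.15 ± 0.17 (SE), adjusted p = 2.28e-10). MAX, the obligate partner of both, was at 27.4, 27.5 and 25.7 FPKM in the WT line and 19.2, 20.8 and 19.8 FPKM in SH-EP and was slightly higher as deposited (log2 change 0.43 ± 0.087 (SE), adjusted p = 0.000199) but lower after spike-in scaling (-0.83). MNT, a repressor that competes for MAX, was higher as deposited, from 2.75 ± 0.243 to 4.67 ± 0.24 FPKM (log2 change 0.75 ± 0.13 (SE), adjusted p = 4.53e-05) and lower after spike-in scaling (-0.48). MXI1, a second MAX-binding repressor, rose from 1.25 ± 0.204 to 3.39 ± 0.329 FPKM (log2 change 1.38 ± 0.17 (SE), adjusted p = 2.44e-07) as deposited (0.19 with spike-in scaling, adjusted p = 0.434). Of the 11 tested genes of this network, 6 higher and 3 lower, against 31.6% and 22.6% of all genes, passed the threshold. Their median was 0.37 as deposited and -0.88 with spike-in scaling.

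Genes chosen by the gap between the groups do not overlap between the lines by that choice. The 15 rising genes with the widest gap, among those past the threshold as deposited and with spike-in scaling, were led by the imprinted noncoding RNA H19 (chromosome 11, 2016396 to 2025782, minus strand). H19 was at 1251, 1032 and 1040.1 FPKM in the WT line and 6.01, 4.34 and 6.61 FPKM in SH-EP. The groups did not overlap, and its gap was the widest of these 15 (log2 change 7.61 ± 0.11 (SE), adjusted p = 2.24e-24). IGF2 (chromosome 11, 2150342 to 2179621, minus strand), the growth factor gene imprinted in the opposite sense at the same locus, was at 15.1, 13.2 and 12.5 FPKM in the WT line and 0.839, 0.982 and 1.25 FPKM in SH-EP, again without overlap (log2 change 3.62 ± 0.13 (SE), adjusted p = 5.01e-17). MRPL23, the nearest tested gene on the other side of H19, was at 60.9 ± 1.36 FPKM in SH-EP and 79.6 ± 18.6 in WT (log2 change 0.36, and -0.89 with spike-in scaling).

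CDC42EP1 (chromosome 22, 37956487 to 37965412, plus strand), an effector of the GTPase CDC42 in actin organization, was at 26.8, 18.3 and 15.9 FPKM in the WT line and 0.0822, 0.0833 and 0 FPKM in SH-EP (log2 change 7.06 ± 0.36 (SE), adjusted p = 5.85e-14). RAB34, a GTPase of vesicle traffic and cilia, was at 11.2, 9.55 and 8.98 FPKM in the WT line and 0, 0.0912 and 0.235 FPKM in SH-EP (log2 change 5.75 ± 0.57 (SE), adjusted p = 8.15e-09). Both were near 0 in the parental line, so that the size of their log2 changes rests on the pseudocount. TUBA1C (chromosome 12, 49582519 to 49668383, plus strand), an alpha-tubulin isotype, was expressed in both lines, at 283, 243 and 220.5 FPKM in the WT line and 7.6, 9.52 and 6.88 FPKM in SH-EP (log2 change 4.95 ± 0.10 (SE), adjusted p = 1.86e-21). Alpha-tubulin genes are close copies of each other, and how reads shared among them were assigned could affect this value. SAA1, an acute-phase apolipoprotein with near-identical paralogs, was at 12.1, 13.6 and 10.6 FPKM in the WT line and 0.246, 0.251 and 0.322 FPKM in SH-EP (log2 change 5.03 ± 0.63 (SE), adjusted p = 3.15e-07).

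DENND3 (chromosome 8, 142127377 to 142205907, plus strand), an exchange factor for the GTPase RAB12, was at 25.4, 22.3 and 21 FPKM in the WT line and 0.876, 0.793 and 0.644 FPKM in SH-EP (log2 change 4.73 ± 0.27 (SE), adjusted p = 6.42e-13). The groups did not overlap. Its 2 nearest tested neighbors, looked at by position, did not share the rise: PTK2, the focal adhesion kinase, went from 24.3 ± 0.61 to 20.1 ± 0.607 FPKM (log2 change -0.27, adjusted p = 0.000151), and SLC45A4 was at 2.11 ± 0.0845 and 2.03 ± 0.16 FPKM (log2 change -0.059, adjusted p = 0.913). SNCG, the neuronal protein gamma-synuclein, was at 50.8, 44.4 and 37.3 FPKM in the WT line and 1.68, 1.31 and 2.54 FPKM in SH-EP (log2 change 4.55 ± 0.18 (SE), adjusted p = 1.1e-15). PTPN7, a phosphatase best known from lymphocytes, was at 28.3, 25 and 24.3 FPKM in the WT line and 1.15, 0.988 and 1.39 FPKM in SH-EP (log2 change 4.35 ± 0.15 (SE), adjusted p = 2.72e-17). CARD9, an adaptor of innate immune signaling, rose from 0.286 ± 0.114 to 7.69 ± 1.53 FPKM (log2 change 4.36), and HBE1, the embryonic epsilon-globin gene, rose from 0.671 ± 0.016 to 13.4 ± 1.97 FPKM (log2 change 4.12). RCOR2, a corepressor of the CoREST family, rose from 0.39 ± 0.194 to 6.41 ± 0.844 FPKM (log2 change 3.82). The groups did not overlap for any of these 5 genes, which were selected for that gap.

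Both remaining genes of the 15 encode proteoglycans. BGN (chromosome X, 152760438 to 152775004, plus strand), the small leucine-rich proteoglycan biglycan of the matrix, was at 123, 104 and 102 FPKM in the WT line and 13.6, 13.7 and 14.4 FPKM in SH-EP (log2 change 2.97 ± 0.079 (SE), adjusted p = 2.97e-19). CSPG4, the cell-surface proteoglycan NG2, was at 10.8, 9.04 and 8.97 FPKM in the WT line and 0.916, 1.08 and 0.94 FPKM in SH-EP (log2 change 3.17 ± 0.16 (SE), adjusted p = 3e-14). The WT libraries lay above the SH-EP libraries in each case, opposite in direction to most matrix genes described below.

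The 15 falling genes with the widest gap included secreted, matrix and surface proteins, and 13 of them are described. Their lack of overlap, too, follows from that choice. ISLR (chromosome 15, 74466051 to 74469213, plus strand), a surface protein of mesenchymal stromal cells, was at 3.55, 4.56 and 4.17 FPKM in the WT line and 72.9, 74.6 and 70.8 FPKM in SH-EP (log2 change -4.13 ± 0.38 (SE), adjusted p = 2.8e-09). STRA6 (chromosome 15, 74471807 to 74504608, minus strand), the retinol uptake receptor and the next expressed gene to ISLR, was at 1.49, 1.52 and 1.4 FPKM in the WT line and 23.7, 26 and 24 FPKM in SH-EP (log2 change -3.97 ± 0.20 (SE), adjusted p = 6.01e-14). Neither gene overlapped between the lines.

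FN1 (chromosome 2, 216225163 to 216300796, minus strand), which encodes fibronectin, the matrix glycoprotein that integrins bind, was at 32.5, 37.4 and 37.5 FPKM in the WT line and 302, 305 and 301 FPKM in SH-EP (log2 change -3.08 ± 0.056 (SE), adjusted p = 1.33e-22). TIMP3 (chromosome 22, 33197691 to 33259028, plus strand), a matrix-bound inhibitor of metalloproteinases, was at 23.1, 21.5 and 21.8 FPKM in the WT line and 188, 193 and 188 FPKM in SH-EP (log2 change -3.09 ± 0.047 (SE), adjusted p = 4.11e-24). No WT library came near the SH-EP libraries for either gene. Among the lower genes of this set, WISP1, a matricellular protein of the CCN family, fell from 5.26 ± 0.145 to 0.158 ± 0.034 FPKM (log2 change -4.39). ASPN, the proteoglycan asporin, fell from 10.4 ± 0.608 to 0.565 ± 0.134 FPKM (log2 change -4.0), and ECM1, a secreted matrix protein, fell from 50.8 ± 1.56 to 3.77 ± 0.123 FPKM (log2 change -3.72). DKK2, a secreted modulator of Wnt signaling, fell from 25.5 ± 2.1 to 1.81 ± 0.0915 FPKM (log2 change -3.74).

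The axon guidance protein SEMA5A fell from 15 ± 0.358 to 1.01 ± 0.351 FPKM (log2 change -3.82), the calcium-dependent kinase CAMK1G from 13.6 ± 1.16 to 1.04 ± 0.0944 FPKM (log2 change -3.59), and the calcineurin regulator RCAN2 from 5.49 ± 0.439 to 0.341 ± 0.143 FPKM (log2 change -3.72). CDH9, a classical cadherin, fell from 6.88 ± 0.353 to 0.521 ± 0.128 FPKM (log2 change -3.51). C1R, the complement protease, fell from 21.3 ± 0.297 to 2.36 ± 0.174 FPKM (log2 change -3.12). The plot of single libraries shows these genes low in WT and expressed in SH-EP.

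**Figure D2:**
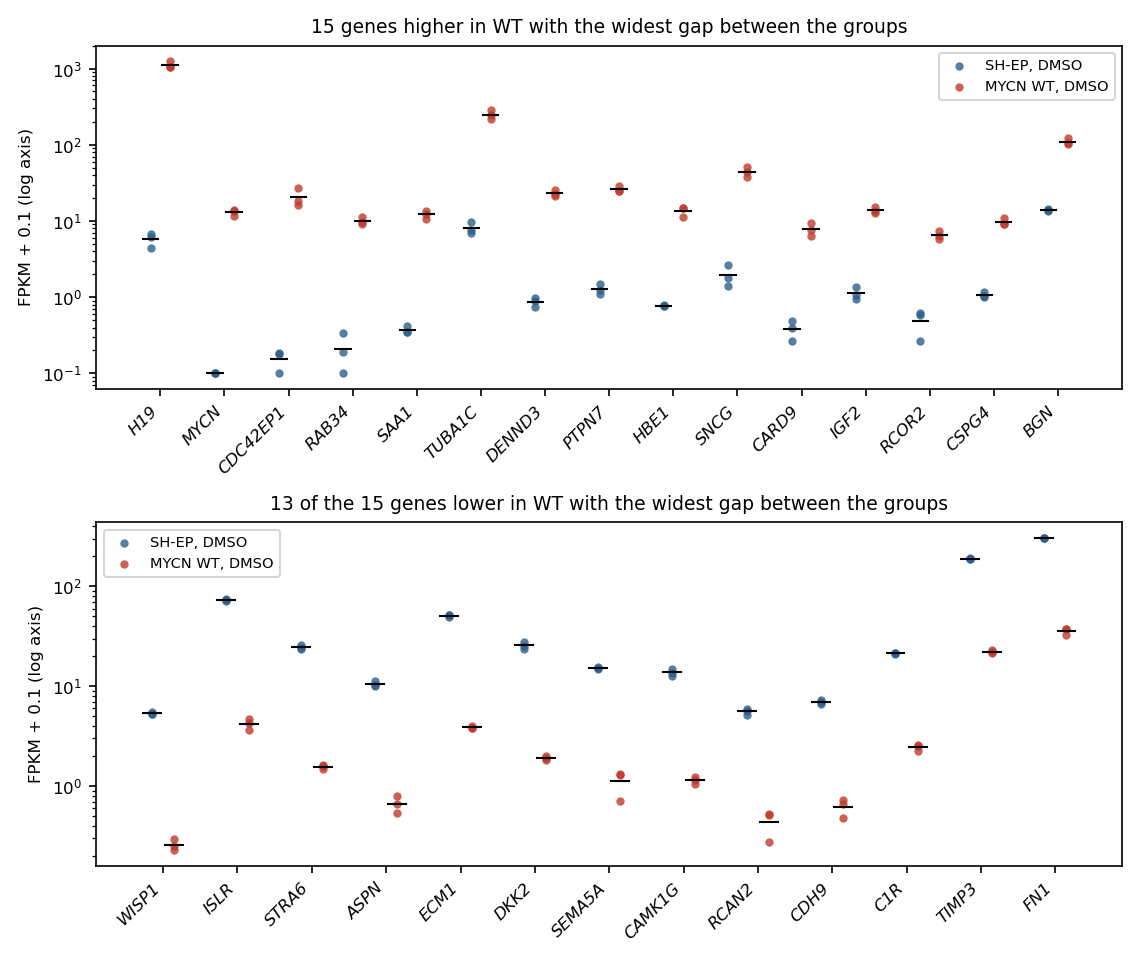
FPKM plus 0.1 (log axis) of the 15 rising and 13 of the 15 falling genes with the widest gap between the lines in each of the 3 WT and 3 SH-EP DMSO libraries, with a bar at each mean. Points of the 2 lines do not overlap for any of the 28 genes, which were selected for that gap, and each kept its direction with spike-in scaling.

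Ribosome biogenesis had the highest median of the lists as deposited. Ribosome biogenesis factors process ribosomal RNA and assemble the ribosome in the nucleolus. Of 35 tested, 34 passed the threshold as higher and 1 as lower, 12 of them at least 2-fold higher, against 31.6%, 22.6% and 3.65% of all genes. Their median log2 change was 0.85 as deposited against 0.071 for all genes, and -0.40 with spike-in scaling against -1.16. Their summed level was 4975 to 5376 FPKM in the WT libraries and 2470.3 to 2546 FPKM in the SH-EP libraries. NPM1 (chromosome 5, 170814120 to 170838814, plus strand), the nucleolar chaperone nucleophosmin, was at 1978, 1738 and 1839 FPKM in the WT line and 713, 739.9 and 763 FPKM in SH-EP (log2 change 1.32 ± 0.072 (SE), adjusted p = 1.99e-13), and its change was near 0 with spike-in scaling (0.068). RRP9, a component of the U3 snoRNP that acts in early rRNA cleavage, was at 71.7, 57.7 and 58.5 FPKM in the WT line and 22.3, 22.3 and 19.5 FPKM in SH-EP (log2 change 1.54 ± 0.080 (SE), adjusted p = 8.1e-14, and 0.29 with spike-in scaling, adjusted p = 0.15). NCL, which encodes nucleolin, was higher as deposited, from 326 ± 14.3 to 708 ± 12.7 FPKM (log2 change 1.12 ± 0.044 (SE), adjusted p = 5.72e-16) but not with spike-in scaling (-0.13), and so was WDR43, a factor of the small subunit processome, from 27.3 ± 0.571 to 62.2 ± 3.28 FPKM (log2 change 1.18), against -0.072 scaled. HEATR1, another small subunit processome factor, was the single member that fell, from 35.5 ± 0.59 to 29.2 ± 3.43 FPKM (log2 change -0.29 ± 0.073 (SE), adjusted p = 0.00185).

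Host genes of small nucleolar RNAs, whose introns carry the guides of rRNA modification, had a median of 0.62 (-0.63 with spike-in scaling), with 14 of 19 higher and 1 lower as deposited. The list includes MIR17HG, the host of the miR-17-92 cluster and not of snoRNAs, which rose from 0.765 ± 0.122 to 3.86 ± 1.08 FPKM (log2 change 2.16 ± 0.28 (SE), adjusted p = 5.31e-07). Cytosolic ribosomal proteins, the most abundant group with 77515 to 93525 FPKM in the WT libraries and 63755 to 65469 FPKM in the SH-EP libraries in sum, were higher for 60 of 77 and lower for 0 (median 0.38, and -0.88 scaled), but only 1 reached 2-fold. Many of them have processed pseudogenes that could take reads. Translation factors were higher for 32 and lower for 2 of 42 (median 0.41, and -0.84 scaled). EEF1E1, a subunit of the multisynthetase complex, was higher as deposited, from 31.7 ± 2.21 to 67.8 ± 2.53 FPKM (log2 change 1.1) and lower scaled (-0.16), as was the initiation factor subunit EIF3J, from 45 ± 1.85 to 86.7 ± 2.49 FPKM (log2 change 0.94) and -0.31 scaled. EIF4A2, a paralog of the initiation helicase EIF4A1, fell from 164 ± 7.84 to 112 ± 15.6 FPKM (log2 change -0.57). tRNA synthetases had a smaller median of 0.19 (-1.06 scaled), with 13 higher and 2 lower of 20.

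Enzymes of nucleotide synthesis and one-carbon metabolism had 25 higher and 1 lower of 30 (median 0.52, and -0.73 with spike-in scaling). NME1, a nucleoside diphosphate kinase, was higher as deposited, from 409 ± 10.5 to 760.4 ± 88.5 FPKM (log2 change 0.89), PAICS, a purine synthesis enzyme, from 102 ± 2.59 to 189.8 ± 8.75 FPKM (log2 change 0.89), and PSAT1, which acts in serine synthesis, from 33.3 ± 0.794 to 61.9 ± 0.428 FPKM (log2 change 0.89), whereas all 3 were lower after spike-in scaling, with log2 changes of -0.37, -0.36 and -0.36. IMPDH2, the rate-limiting enzyme of guanine nucleotide synthesis, was the single member that fell, from 183 ± 1.19 to 136 ± 10.2 FPKM (log2 change -0.44 ± 0.050 (SE), adjusted p = 7.78e-08). Polyamines are small cations needed for growth, made from ornithine. ODC1 (chromosome 2, 10580094 to 10588453, minus strand), the rate-limiting ornithine decarboxylase, was at 292, 284 and 270.0 FPKM in the WT line and 92.8, 101 and 93.3 FPKM in SH-EP, without overlap (log2 change 1.56 ± 0.049 (SE), adjusted p = 1.04e-17, and 0.30 with spike-in scaling, adjusted p = 0.104). SMS, spermine synthase, was higher as deposited, from 58.9 ± 3.31 to 93.6 ± 4.04 FPKM (log2 change 0.67) and lower scaled (-0.59), and OAZ2, an antizyme that inhibits ODC1, fell from 41.4 ± 1.73 to 34.7 ± 1.5 FPKM (log2 change -0.25). In all, 5 higher and 2 lower of 9 polyamine genes passed (median 0.28, -0.97 scaled and 0.18 without WT library 1).

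Glycolysis genes had 15 higher and 3 lower of 22 (median 0.31, and -0.94 with spike-in scaling). HK2 (chromosome 2, 75061254 to 75120486, plus strand), the hexokinase induced in many tumors, was at 8.45, 8.86 and 9.33 FPKM in the WT line and 2.35, 2.58 and 2.42 FPKM in SH-EP (log2 change 1.82 ± 0.094 (SE), adjusted p = 8.78e-14). SLC16A1, the lactate transporter MCT1, was higher as deposited, from 36 ± 1.26 to 79.5 ± 6.09 FPKM (log2 change 1.14) and slightly lower scaled (-0.12), and LDHB, a lactate dehydrogenase subunit, likewise from 556 ± 17.8 to 982 ± 5.8 FPKM (log2 change 0.82) and -0.43 scaled. SLC2A3, the glucose transporter GLUT3, fell from 4.53 ± 0.348 to 1.29 ± 0.0817 FPKM (log2 change -1.73 ± 0.21 (SE), adjusted p = 2.55e-07). Respiratory chain subunits had 56 higher and 2 lower of 74, none by 2-fold (median 0.37, and -0.89 scaled). NDUFS6 of complex I was higher as deposited, from 108 ± 1.27 to 201 ± 28.3 FPKM (log2 change 0.88) and lower scaled (-0.37), while SDHC of complex II fell from 32.6 ± 2.84 to 24.8 ± 2.24 FPKM (log2 change -0.39). Amino acid uptake and glutamine genes had 8 higher and 1 lower of 15 (median 0.37, and -0.88 scaled), with the transaminase GPT2 from 3.84 ± 0.352 to 7.9 ± 0.737 FPKM (log2 change 1.02) and the glutamine transporter SLC38A1 from 17.1 ± 0.571 to 32.3 ± 4.14 FPKM (log2 change 0.91), both of which were lower once scaled (-0.21 and -0.34).

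Chaperones, which fold new proteins, had 20 higher and 2 lower of 29 (median 0.49, and -0.77 with spike-in scaling). HSPE1, the mitochondrial co-chaperonin, was higher as deposited, from 204 ± 5.58 to 464 ± 36 FPKM (log2 change 1.18) and slightly lower scaled (-0.075), and GRPEL1, the nucleotide exchange factor of mitochondrial HSP70, from 34.7 ± 0.231 to 67.8 ± 3.0 FPKM (log2 change 0.97) and -0.29 scaled. HSPB1, a small heat shock protein that also acts on actin, fell from 674 ± 34.4 to 469.7 ± 81 FPKM (log2 change -0.53). Cholesterol and fatty acid synthesis did not share this pattern, with 8 higher and 6 lower of 28 and a median of 0.0019 (-1.25 scaled). Of the list of P-TEFb and its regulators, which includes CDK9, the kinase that releases paused RNA polymerase II, 7 higher and 2 lower of 16 tested were called (median 0.14, and -1.11 scaled), none by 2-fold. Among all genes, 31.6% passed as higher and 22.6% as lower. Polycomb genes had 12 higher and 2 lower of 25 (median 0.30, and -0.95 scaled), and the single one to change 2-fold was CBX7, a chromobox subunit, which fell from 1.99 ± 0.0858 to 0.92 ± 0.127 FPKM (log2 change -1.04).

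**Figure D3:**
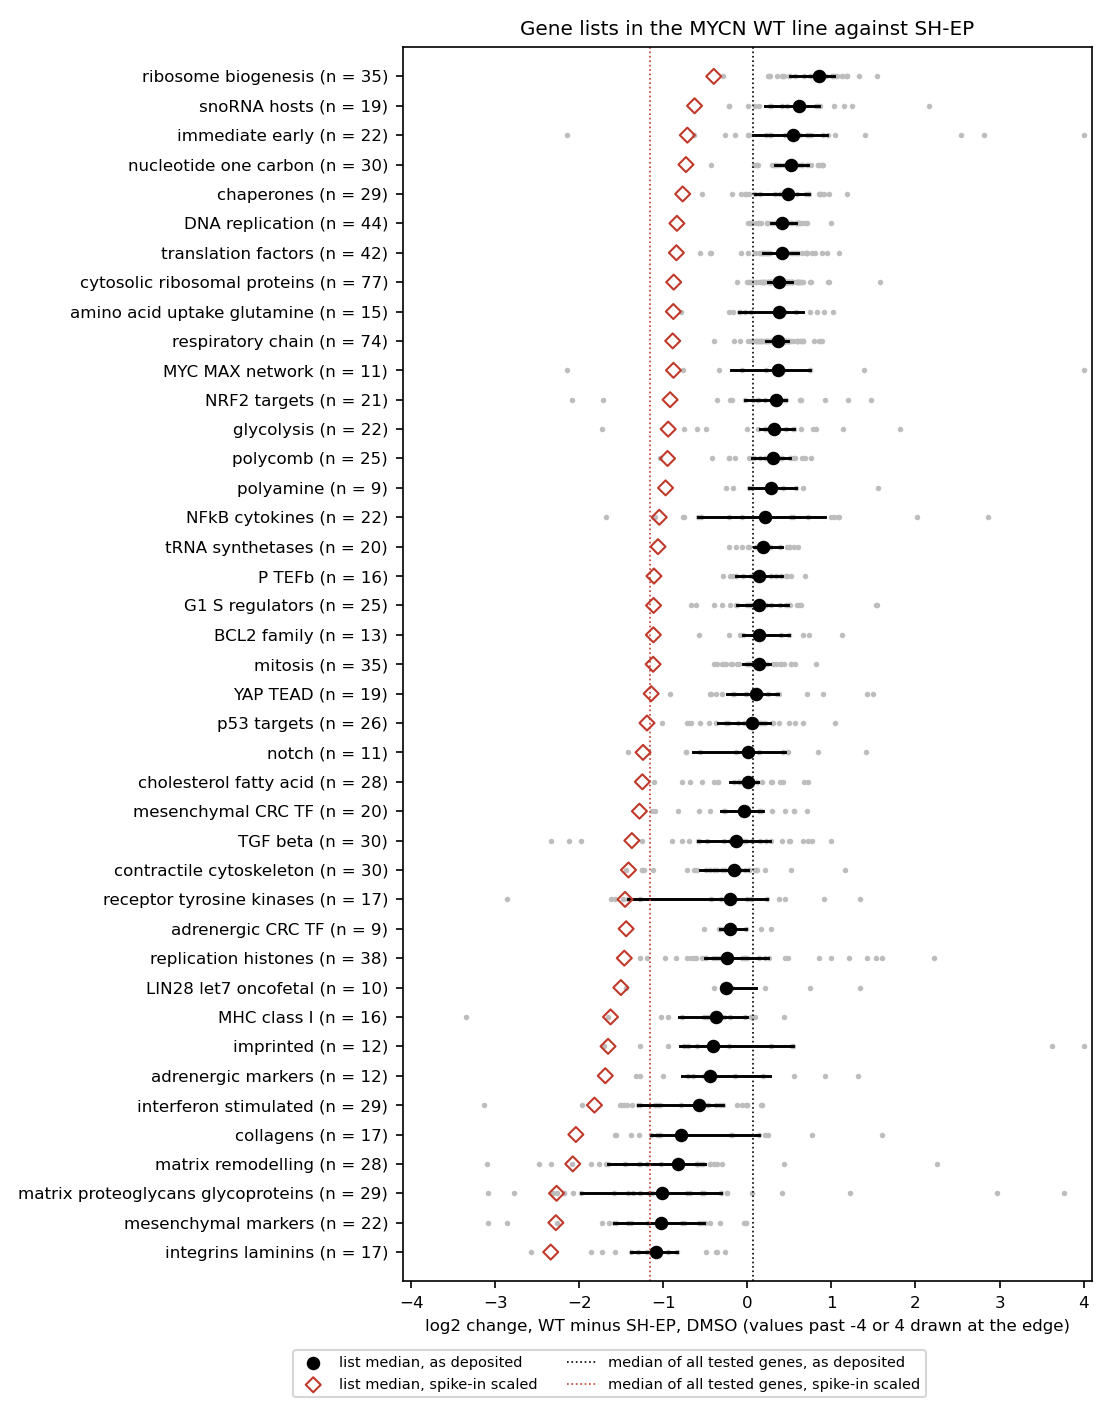
Log2 change of WT minus SH-EP in DMSO for the members of each gene list with at least 8 tested genes (gray points), ordered by median. Black points are medians and black lines interquartile ranges as deposited, red diamonds are medians with spike-in scaling, and dotted lines are the medians of all tested genes. Growth lists stand above the all-gene median and matrix lists below it on either scale, while every list median is under 0 once scaled.

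E-boxes were counted in RefSeq promoter windows of GRCh38.p14, from 250 bases before to 50 after each annotated start, by searching for CACGTG, which reads the same on both strands. Of all windows, 7.26% held the motif. Of the protein-coding tested genes, 8915 of 10324 had a window on the chromosomes covered, and 1175 (13.2%) held it in at least 1 window, with several windows counted per gene. The share was 17.1% (504 of 2953) for genes past the threshold higher, 9.92% (208 of 2097) for those lower and 12% for those not past it. By list, it was 48.3% (14 of 29) for ribosome biogenesis, 28% (7 of 25) for nucleotide and one-carbon genes and 25% (5 of 20) for glycolysis, but 6.56% (4 of 61) for cytosolic ribosomal proteins. Integrins and laminins had 6.25% (1 of 16) and contractile genes 3.70% (1 of 27). The lists did not divide by direction throughout, since it was 6.25% (1 of 16) for tRNA synthetases and 10% (6 of 60) for the respiratory chain, and 17.9% (5 of 28) for TGF-β genes and 28.6% (2 of 7) for adrenergic CRC TFs. Base composition was not accounted for. The check is void for the 2-fold genes and for the collagen, matrix and mesenchymal lists, of which less than 80% of genes had a window. The windows shown are those of growth genes described above that hold the motif, of TUBA1C as one of the widest risers, and of FN1 as a falling gene without it. Each is printed on the strand of its gene with CACGTG in capitals. The motif begins at -29 and 5 from the annotated start in ODC1 (chr2:10447963-10448262, minus strand), at -194 and -149 in HK2 (chr2:74834920-74835219, plus strand), at -5 in RRP9 (chr3:51941855-51942154, minus strand) and at -52 in TUBA1C (chr12:49264832-49265131, plus strand). It is not in the FN1 window (chr2:215436019-215436318, minus strand), nor in that of H19, the leading riser, or of TIMP3. ODC1, HK2 and TUBA1C have further annotated starts whose windows lack it.
ODC1: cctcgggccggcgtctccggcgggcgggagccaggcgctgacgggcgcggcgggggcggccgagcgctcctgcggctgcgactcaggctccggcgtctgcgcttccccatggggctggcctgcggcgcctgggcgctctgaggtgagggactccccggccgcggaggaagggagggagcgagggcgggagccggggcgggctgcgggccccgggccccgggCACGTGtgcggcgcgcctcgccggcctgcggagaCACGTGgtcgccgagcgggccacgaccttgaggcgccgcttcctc
HK2: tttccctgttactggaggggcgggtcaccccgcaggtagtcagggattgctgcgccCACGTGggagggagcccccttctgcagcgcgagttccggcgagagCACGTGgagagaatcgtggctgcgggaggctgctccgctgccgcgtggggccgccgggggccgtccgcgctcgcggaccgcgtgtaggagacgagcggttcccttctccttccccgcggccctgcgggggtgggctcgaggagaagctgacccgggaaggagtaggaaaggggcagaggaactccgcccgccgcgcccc
RRP9: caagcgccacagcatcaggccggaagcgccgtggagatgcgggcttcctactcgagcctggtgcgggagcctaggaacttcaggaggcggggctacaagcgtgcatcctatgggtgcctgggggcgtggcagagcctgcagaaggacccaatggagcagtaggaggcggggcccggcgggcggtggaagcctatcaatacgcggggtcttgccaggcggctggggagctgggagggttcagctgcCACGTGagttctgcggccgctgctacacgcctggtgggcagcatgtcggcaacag
TUBA1C: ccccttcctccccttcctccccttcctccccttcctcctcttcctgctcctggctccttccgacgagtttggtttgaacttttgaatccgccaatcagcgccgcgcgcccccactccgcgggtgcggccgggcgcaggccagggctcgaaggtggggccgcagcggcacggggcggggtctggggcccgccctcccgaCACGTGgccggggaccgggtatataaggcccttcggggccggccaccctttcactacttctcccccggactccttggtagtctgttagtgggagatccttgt
FN1: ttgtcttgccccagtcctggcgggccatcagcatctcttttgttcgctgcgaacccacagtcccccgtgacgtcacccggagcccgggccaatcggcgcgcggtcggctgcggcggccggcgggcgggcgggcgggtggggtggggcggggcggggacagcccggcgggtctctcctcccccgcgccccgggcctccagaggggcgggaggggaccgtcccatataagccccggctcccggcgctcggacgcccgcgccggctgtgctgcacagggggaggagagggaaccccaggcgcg

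NPM1 and NCL, both at least 2-fold higher as deposited, had no window with these letters, which says nothing about binding of MYCN there. A match is likewise a description of sequence and not a site.

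Few cell cycle genes changed by 2-fold. DNA replication factors had 37 higher and 0 lower of 44 as deposited, none by 2-fold (median 0.41, and -0.84 with spike-in scaling). PRIM1, the primase subunit, was at 32.6, 34.8 and 39.9 FPKM in the WT line and 17.9, 18 and 17.8 FPKM in SH-EP, higher as deposited (log2 change 0.99 ± 0.10 (SE), adjusted p = 1.48e-08) and lower scaled (-0.26). Mitotic genes had 13 higher and 6 lower of 35 (median 0.13, -1.12 with spike-in scaling and 0.073 without SH-EP library 1), close to the shares of all genes. AURKA, a mitotic kinase whose protein stabilizes MYCN, was at 112, 111 and 111 FPKM in the WT line and 64.9, 62 and 63.3 FPKM in SH-EP, higher as deposited (log2 change 0.81 ± 0.076 (SE), adjusted p = 2.79e-09) and lower scaled (-0.44), whereas the kinetochore protein CENPF fell from 87.9 ± 0.794 to 67.1 ± 7.09 FPKM (log2 change -0.40). Replication-dependent histones, most of whose mRNAs lack a poly(A) tail and are poorly captured by this library type, had 0 higher and 4 lower of 38 (median -0.25, and -0.11 without WT library 2).

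Of 25 regulators of entry into S phase, 10 passed as higher and 5 as lower (median 0.14, and -1.12 with spike-in scaling). CCNE1 (chromosome 19, 30302898 to 30315219, plus strand), the cyclin E that activates CDK2, was at 13, 11.6 and 12 FPKM in the WT line and 4.57, 3.7 and 4.11 FPKM in SH-EP (log2 change 1.54 ± 0.13 (SE), adjusted p = 7.67e-10, and 0.31 with spike-in scaling, adjusted p = 0.173). E2F5, a pocket-protein binding TF, rose from 3.83 ± 0.446 to 11.2 ± 0.89 FPKM (log2 change 1.53 ± 0.23 (SE), adjusted p = 4.03e-06) as deposited (0.30 with spike-in scaling, adjusted p = 0.292). CDK6, the kinase of the cyclin D complex, did not differ past the threshold as deposited, at 23.3, 25.6 and 25.9 FPKM in the WT line and 26.6, 25.3 and 22.9 FPKM in SH-EP. Its log2 change was 0.0016 as deposited and -1.25 with spike-in scaling (adjusted p = 2.9e-06). CDKN1A (chromosome 6, 36644237 to 36655114, plus strand), the CDK inhibitor p21 that p53 activates, was at 44.9, 43.8 and 41 FPKM in the WT line and 66.7, 71.5 and 68 FPKM in SH-EP and fell (log2 change -0.67 ± 0.050 (SE), adjusted p = 6.34e-11). The p53 targets, CDKN1A included, had no common direction, with 8 higher and 7 lower of 26 and a median of 0.058 (-1.19 scaled). AEN, an apoptotic nuclease, was higher as deposited, from 11.6 ± 0.0969 to 24.1 ± 1.43 FPKM (log2 change 1.04) and lower scaled (-0.20), and TP53INP1, a proapoptotic stress protein, fell from 0.696 ± 0.109 to 0.292 ± 0.0471 FPKM (log2 change -1.02). Of the BCL2 family, 4 higher and 1 lower of 13 tested were called, against 31.6% and 22.6% of all genes (median 0.13, and -1.12 with spike-in scaling). The proapoptotic members BID, from 25 ± 1.7 to 54.5 ± 3.62 FPKM (log2 change 1.12), and BAX, from 111 ± 5.69 to 177 ± 28.7 FPKM (log2 change 0.67), were higher as deposited and lower scaled (-0.13 and -0.59).

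Most tested genes of the extracellular matrix and of adhesion to it were lower in WT. Of 17 tested integrin and laminin genes, whose products join the cell to the matrix, 16 were lower and 0 higher, 11 of them at least 2-fold lower, against 22.6%, 31.6% and 5.37% of all genes (median -1.08 against 0.071, and -2.34 against -1.16 with spike-in scaling). Their summed level was 593 to 626 FPKM in the WT libraries and 1273 to 1316 FPKM in the SH-EP libraries. ITGA1 (chromosome 5, 52083750 to 52255039, plus strand), a collagen-binding integrin chain, was at 14.3, 17.7 and 19.6 FPKM in the WT line and 102, 98.4 and 105 FPKM in SH-EP (log2 change -2.57 ± 0.072 (SE), adjusted p = 9.46e-19). ITGA2, another collagen-binding chain, fell from 96.3 ± 0.752 to 29.3 ± 5.58 FPKM (log2 change -1.73 ± 0.087 (SE), adjusted p = 4.85e-14), and LAMB3, a chain of laminin-332, fell from 107 ± 1.13 to 29.3 ± 1.62 FPKM (log2 change -1.86 ± 0.081 (SE), adjusted p = 3.52e-15). No WT library reached the lowest SH-EP library for any of these 3.

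Matrix proteoglycans and glycoproteins had 24 lower and 4 higher of 29, 15 at least 2-fold lower (median -1.01). SPARC (chromosome 5, 151040657 to 151066536, minus strand), a collagen-binding matricellular protein, was at 102, 97.3 and 98 FPKM in the WT line and 477, 476 and 482 FPKM in SH-EP (log2 change -2.27 ± 0.035 (SE), adjusted p = 4.49e-24). DCN, the proteoglycan decorin, was at 3.61, 4.15 and 4.33 FPKM in the WT line and 28, 26.6 and 30.1 FPKM in SH-EP (log2 change -2.78 ± 0.14 (SE), adjusted p = 7.92e-14), and FBN1, the microfibril protein fibrillin, fell from 22.9 ± 0.702 to 4.54 ± 0.633 FPKM (log2 change -2.32 ± 0.087 (SE), adjusted p = 2.34e-16). TGFBI, a matrix protein induced by TGF-β, fell from 684 ± 5.34 to 173 ± 5.31 FPKM (log2 change -1.98 ± 0.038 (SE), adjusted p = 3.48e-22). Against the trend, BGN (above) rose, and MGP, an inhibitor of calcification, rose from 1.5 ± 0.562 to 3.48 ± 0.363 FPKM (log2 change 1.22 ± 0.20 (SE), adjusted p = 1.52e-05) at a low level that was near 0 in change with spike-in scaling (0.020). Collagens had 12 lower and 3 higher of 17 (median -0.78). The fibrillar chains COL1A1 and COL3A1 were at 247, 206 and 197 FPKM in the WT line and 673, 646 and 594 FPKM in SH-EP and at 199, 205 and 207 FPKM in the WT line and 530.5, 522 and 542 FPKM in SH-EP, respectively (log2 change -1.56 ± 0.086 (SE), adjusted p = 2.63e-13 and log2 change -1.38 ± 0.045 (SE), adjusted p = 1.57e-17). COL5A1, which nucleates such fibrils, fell from 23.7 ± 0.725 to 7.88 ± 0.235 FPKM (log2 change -1.57), while COL16A1, a fibril-associated collagen, rose from 1.08 ± 0.044 to 3.48 ± 0.318 FPKM (log2 change 1.6) as deposited (0.42 with spike-in scaling, adjusted p = 0.0829).

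Genes that cut or protect the matrix had 25 lower and 1 higher of 28 (median -0.83). PLAT (chromosome 8, 42032236 to 42065227, minus strand), the tissue plasminogen activator, was at 109, 102 and 102 FPKM in the WT line and 583, 579 and 581 FPKM in SH-EP (log2 change -2.48 ± 0.040 (SE), adjusted p = 8.04e-24). The lines did not overlap for PLAT. The single member that rose was ADAMTS1, a metalloproteinase that cleaves proteoglycans, from 1.1 ± 0.0812 to 5.65 ± 0.746 FPKM (log2 change 2.25 ± 0.16 (SE), adjusted p = 2.43e-11).

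The list of mesenchymal markers shares members with the matrix lists. Of 22 tested, 19 were lower, 12 of them at least 2-fold, and 0 higher (median -1.02), and the sum was 6114 to 6963 FPKM in the WT libraries and 11753 to 12160.5 FPKM in the SH-EP libraries. SH-EP is called mesenchymal by the study, and of the 24 markers listed only 2 were too low to be tested. PDGFRA (chromosome 4, 55095447 to 55164412, plus strand), a receptor of mesenchymal cells, was at 2.36, 2.42 and 2.44 FPKM in the WT line and 17.6, 17.1 and 19.9 FPKM in SH-EP (log2 change -2.86 ± 0.15 (SE), adjusted p = 1.6e-13). CDH11 (chromosome 16, 64977656 to 65160015, minus strand), the cadherin of mesenchymal cells, was at 31.1, 32.7 and 32.9 FPKM in the WT line and 102, 98.7 and 103 FPKM in SH-EP (log2 change -1.65 ± 0.047 (SE), adjusted p = 1.25e-18). CDH2, N-cadherin, fell from 43 ± 1.33 to 12.9 ± 0.972 FPKM (log2 change -1.73 ± 0.087 (SE), adjusted p = 4.74e-14). Cadherins did not all fall. Of the 3 tested members of the cadherin list, 2 were lower and 1 was at least 2-fold higher (log2 change 2.5), and that 1 stayed higher with spike-in scaling. Contractile and cytoskeletal genes were divided, with 4 higher and 17 lower of 30 (median -0.16). ACTA2, smooth muscle actin, fell from 53.2 ± 1.84 to 22.3 ± 2.29 FPKM (log2 change -1.26) and the actin-binding protein CALD1 from 142 ± 2.05 to 52.2 ± 1.63 FPKM (log2 change -1.44), whereas the tropomyosin TPM2 was higher as deposited, from 160.1 ± 3.75 to 360.2 ± 35.7 FPKM (log2 change 1.16) and lower scaled (-0.091).

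TGF-β genes had 6 higher (20%) and 11 lower (36.7%) of 30 (median -0.14), and genes of the receptor, the latent complex and a target were among those that fell. Among all genes, 31.6% passed as higher, 22.6% as lower and 5.37% as at least 2-fold lower. TGFBR2, the type II receptor, was at 14.2, 14.6 and 15.6 FPKM in the WT line and 34.6, 36.4 and 35.4 FPKM in SH-EP (log2 change -1.25 ± 0.081 (SE), adjusted p = 4.55e-12). LTBP1, which holds latent TGF-β in the matrix, fell from 35.8 ± 1.19 to 8.18 ± 0.507 FPKM (log2 change -2.12 ± 0.079 (SE), adjusted p = 1.96e-16), and TGFBI, a target, fell as given above. SMAD6, an inhibitory SMAD, was higher as deposited, from 4.78 ± 0.458 to 9.64 ± 0.687 FPKM (log2 change 1.0) and lower scaled (-0.24). Receptor tyrosine kinases had 4 higher and 10 lower of 17, 6 at least 2-fold lower (median -0.20). The collagen receptor DDR2 fell from 39.7 ± 1.24 to 13 ± 2.54 FPKM (log2 change -1.62) and the ephrin receptor EPHB2 from 9.48 ± 0.507 to 3.13 ± 0.386 FPKM (log2 change -1.57), while ROR1, a receptor for Wnt ligands, rose from 1.44 ± 0.279 to 3.78 ± 0.406 FPKM (log2 change 1.34) as deposited (0.14 with spike-in scaling, adjusted p = 0.63). YAP/TEAD targets had no common direction (7 higher and 5 lower of 19, median 0.10, and -1.14 scaled), nor had Notch genes (2 higher and 4 lower of 11, median 0.0083, and -1.24 scaled).

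The TFs listed here for the mesenchymal CRC did not fall as the mesenchymal markers did. The study's text does not name the members of that circuitry, so this list may differ from the one it used. Of 20 tested, 5 passed as higher and 7 as lower, 2 of them at least 2-fold lower, with a median of -0.035 (-1.28 with spike-in scaling). Among all genes, 31.6% passed as higher and 22.6% as lower. PRRX1 (chromosome 1, 170631869 to 170708562, plus strand), a homeobox TF that can drive the mesenchymal state, was at 45.5, 52.1 and 54.6 FPKM in the WT line and 109, 107 and 117 FPKM in SH-EP (log2 change -1.14 ± 0.071 (SE), adjusted p = 2.73e-12). SNAI2 (chromosome 8, 49830157 to 49834299, minus strand), the TF Slug of epithelial-mesenchymal transition, was at 11.9, 11.6 and 12.7 FPKM in the WT line and 20.5, 21.9 and 21.6 FPKM in SH-EP (log2 change -0.82 ± 0.12 (SE), adjusted p = 3.56e-06). IRF1, an interferon-induced TF, fell from 5.82 ± 0.26 to 2.68 ± 0.479 FPKM (log2 change -1.1). FOSL1, an AP-1 subunit, was higher as deposited, from 93.1 ± 7.3 to 153 ± 20.7 FPKM (log2 change 0.71) and lower scaled (-0.54), as was ZNF217, from 7.79 ± 0.819 to 11.6 ± 1.68 FPKM (log2 change 0.56) and -0.69 scaled.

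The adrenergic TFs and markers were not higher in WT as a group. Only 9 of the 22 adrenergic CRC TFs were tested, since others, among them PHOX2A and HAND1, which mark sympathetic neuroblasts, were at or near 0 in both lines. Of these 9, 1 passed as higher and 3 as lower (median -0.21). HAND2 (chromosome 4, 174446120 to 174451380, minus strand) was at 70.0, 65.6 and 60.0 FPKM in the WT line and 78, 83.9 and 83.4 FPKM in SH-EP and fell (log2 change -0.33 ± 0.075 (SE), adjusted p = 0.000683), TBX2 fell from 109 ± 3.45 to 89.8 ± 9.68 FPKM (log2 change -0.28) and MEIS2 from 43.9 ± 1.12 to 30.8 ± 0.524 FPKM (log2 change -0.51), and the fall of TBX2 was not past the threshold without WT library 2 or 3. GATA2 was at 19.5, 18.1 and 17.9 FPKM in the WT line and 16.1, 14.3 and 15.1 FPKM in SH-EP, slightly higher as deposited (log2 change 0.28 ± 0.11 (SE), adjusted p = 0.0405) and lower scaled (-0.97), a call that leaving out any 1 of 5 libraries ended, SH-EP library 1 being the exception. Of 38 adrenergic markers 12 were tested and 4 passed as higher and 6 as lower (median -0.45). SCG2, a granin of secretory vesicles, fell from 78.3 ± 1.89 to 31.3 ± 1.19 FPKM (log2 change -1.32), and the neuronal tubulin TUBB3 from 144 ± 10.8 to 72 ± 9.34 FPKM (log2 change -1.0). CHGB, another granin, rose from 0.483 ± 0.188 to 1.31 ± 0.135 FPKM (log2 change 1.32) as deposited (0.23 with spike-in scaling, adjusted p = 0.454), and MAB21L2 was higher as deposited, from 6.84 ± 0.589 to 13.1 ± 1.08 FPKM (log2 change 0.93) and lower scaled (-0.32). Of the Schwann cell and neural crest list, 1 higher and 3 lower of 6 tested were called, with the Schwann marker S100B falling from 5.48 ± 0.745 to 1.43 ± 0.495 FPKM (log2 change -1.91), a call lost without WT library 1.

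Interferon-stimulated and MHC class I genes had more lower than higher members. Interferon-stimulated genes had 19 lower and 0 higher of 29 against 22.6% and 31.6% of all genes (median -0.58, -1.82 with spike-in scaling and -0.20 over the members averaging 5 FPKM or more). TRIM22, an antiviral ubiquitin ligase, was at 0.283, 0.324 and 0.24 FPKM in the WT line and 2.93, 3.44 and 3.32 FPKM in SH-EP (log2 change -3.13 ± 0.25 (SE), adjusted p = 1.8e-10). IFI44 fell from 13.1 ± 1.0 to 3.44 ± 1.21 FPKM (log2 change -1.97) and the helicase DDX60 from 3.44 ± 0.158 to 1.15 ± 0.22 FPKM (log2 change -1.51). Genes of MHC class I, which present peptides to T cells, had 10 lower and 1 higher of 16 (median -0.37), though HLA genes are polymorphic close copies and their own values are uncertain. PSMB9, an immunoproteasome subunit, was at 4.5, 4.07 and 3.46 FPKM in the WT line and 13.6, 12.3 and 12.6 FPKM in SH-EP (log2 change -1.66 ± 0.17 (SE), adjusted p = 9.11e-09), and ERAP2, a peptide-trimming peptidase, fell from 37.4 ± 0.655 to 18.4 ± 1.62 FPKM (log2 change -1.02 ± 0.066 (SE), adjusted p = 4.5e-12). NF-κB targets and cytokines were divided (8 higher and 6 lower of 22, median 0.20, and -1.05 with spike-in scaling). Of the adhesion receptors among them, VCAM1 fell from 16.9 ± 1.03 to 5.27 ± 1.1 FPKM (log2 change -1.68 ± 0.16 (SE), adjusted p = 2.45e-09) and ICAM1 rose from 0.0764 ± 0.00611 to 1.2 ± 0.263 FPKM (log2 change 2.86 ± 0.29 (SE), adjusted p = 1.32e-08).

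Immediate early genes, which respond to growth factors within minutes, had 13 higher and 3 lower of 22 (median 0.54, and -0.71 with spike-in scaling). FOS (chromosome 14, 75745529 to 75748933, plus strand) was at 63.5, 61.8 and 52.4 FPKM in the WT line and 9.72, 11.1 and 9.39 FPKM in SH-EP (log2 change 2.54 ± 0.091 (SE), adjusted p = 9.22e-17), and FOSB, at a lower level, rose from 0.373 ± 0.0596 to 3.22 ± 0.103 FPKM (log2 change 2.82 ± 0.16 (SE), adjusted p = 3.43e-13). IER3, a stress-induced survival gene, rose from 0.0602 ± 0.0534 to 3.21 ± 1.34 FPKM (log2 change 4.36 ± 0.35 (SE), adjusted p = 2.26e-10). JUN, the AP-1 partner of FOS, moved the other way, at 15.7, 14.2 and 11.5 FPKM in the WT line and 22.9, 20.8 and 20.5 FPKM in SH-EP (log2 change -0.64 ± 0.11 (SE), adjusted p = 3.1e-05). NRF2 targets of the oxidative stress response had 12 higher and 3 lower of 21 (median 0.34, and -0.92 scaled). HMOX1, heme oxygenase, was at 45.5, 42.2 and 41.3 FPKM in the WT line and 17.3, 14.2 and 15.1 FPKM in SH-EP (log2 change 1.47 ± 0.12 (SE), adjusted p = 4.02e-10, and 0.21 with spike-in scaling, adjusted p = 0.358), and GCLC, which makes glutathione, was higher as deposited, from 9.09 ± 0.256 to 21 ± 1.08 FPKM (log2 change 1.2) and about level scaled (-0.050), but the aldo-keto reductase AKR1C3 fell from 37.4 ± 2.75 to 8.76 ± 1.27 FPKM (log2 change -2.09 ± 0.24 (SE), adjusted p = 1.01e-07).

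Imprinted genes did not follow H19 and IGF2 as a group, with 5 higher and 6 lower of 12 and a median of -0.40. The sarcoglycan SGCE fell from 50.6 ± 3.02 to 20.8 ± 1.02 FPKM (log2 change -1.28), and the list member MAGED2, an X-linked MAGE gene, fell from 62.2 ± 2.15 to 19 ± 0.635 FPKM (log2 change -1.71). Of the LIN28 and let-7 list, 2 higher and 6 lower of 10 tested were called (median -0.26). LIN28B, which blocks let-7 maturation, rose from a low level from 0.807 ± 0.132 to 2.19 ± 0.209 FPKM (log2 change 1.34 ± 0.27 (SE), adjusted p = 0.000192) as deposited (0.19 with spike-in scaling, adjusted p = 0.604), whereas HMGA2, a chromatin protein and let-7 target, was at 40.6, 43.2 and 46.3 FPKM in the WT line and 118, 118 and 119 FPKM in SH-EP and fell (log2 change -1.45 ± 0.078 (SE), adjusted p = 1.9e-13).

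Among the markers of other cell types, the epithelial CDH1 and the endothelial KDR were listed at 0 in all 6 libraries, while others were expressed. Of 14 epithelial, 10 endothelial and 11 hematopoietic markers, 5, 2 and 4 were tested. Of these, 1, 0 and 0 passed as higher and 2, 1 and 4 as lower, against 31.6% and 22.6% of all genes. The epithelial marker that passed as higher was at least 2-fold higher as deposited, and the highest log2 change of that list was 1.58. The endothelial sum was 2.43 to 3.39 FPKM in the WT libraries and 10.7 to 12.1 FPKM in the SH-EP libraries, most of it EMCN, endomucin, which fell from 9.63 ± 0.627 to 1.24 ± 0.184 FPKM (log2 change -2.87). The hematopoietic sum was 25.6 to 30.2 FPKM in the WT libraries and 46.3 to 51 FPKM in the SH-EP libraries, with the lysosomal protein CD68 falling from 17.1 ± 2.02 to 6.02 ± 0.263 FPKM (log2 change -1.49) and the actin bundler LCP1 from 1.68 ± 0.226 to 0.0397 ± 0.0194 FPKM (log2 change -3.68). The epithelial sum was 487 to 632 FPKM in the WT libraries and 638 to 698 FPKM in the SH-EP libraries, nearly all of it the keratins KRT8 and KRT18, and the keratin KRT19 fell from 8.03 ± 0.241 to 2.84 ± 0.97 FPKM (log2 change -1.51). The part of other cells in these differences was not tested.

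The CYC065 libraries had no part in the DMSO changes, but entered the level filter and the estimate of spread behind the DMSO calls. The same contrast in them gave the same direction for 418 of the 422 genes (99.1%) and for 603 of the 621 (97.1%). There, 381 (90.3%) and 585 (94.2%) also passed the threshold, against 32.9% of all tested genes higher and 32.3% lower. The median change of the 422 genes was 1.32 in DMSO and 1.23 with CYC065, and that of the 621 genes -1.42 and -1.71. Both treatments compare the same pair of lines, so the libraries are separate but the lines are not. H19 kept a log2 change of 7.42, CDC42EP1 5.98, TUBA1C 4.43 and DENND3 4.5, and among the falling genes FN1 was at -3.0, TIMP3 at -3.51, ISLR at -4.52 and PDGFRA at -2.95.

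Of growth lists, ribosome biogenesis had a median of 1.05 in the CYC065 libraries and chaperones 0.70, whereas cytosolic ribosomal proteins, at 0.38 in DMSO, were at -0.0032, and immediate early genes, at 0.54 in DMSO, at 0.073. The respiratory chain went from 0.37 to 0.049. The sign turned for polyamine genes, from 0.28 to -0.084, for NRF2 targets, from 0.34 to -0.036, for p53 targets, from 0.058 to -0.19, for Notch genes, from 0.0083 to -0.34, for cholesterol genes, from 0.0019 to -0.19, for the LIN28 and let-7 list, from -0.26 to 0.033, and for the Schwann and neural crest list, from -0.22 to 0.29. The matrix lists kept theirs, with -1.34 for integrins and laminins and -1.45 for mesenchymal markers. Among single genes, SNAI2 had a change of -0.82 in DMSO and 0.62 with CYC065, CDKN1A -0.67 and 0.10, HEATR1 -0.29 and 0.19, HAND2 -0.33 and 0.016, and FOSL1 0.71 and -0.093, so the sign differed between treatments for these 5. FOS was 2.54 and 1.1, and IER3 4.36 and 2.38. The difference between treatments was not tested for these genes here.

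**Figure D4:**
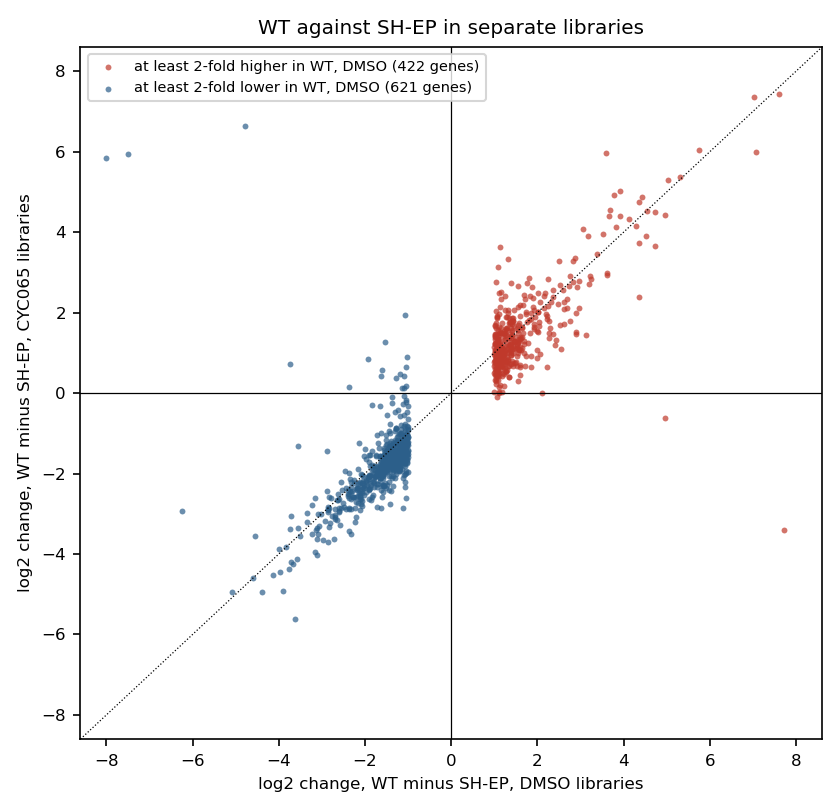
Log2 change of WT minus SH-EP in the DMSO libraries (horizontal) against the same change in the CYC065 libraries (vertical) for the 422 genes at least 2-fold higher (red) and the 621 at least 2-fold lower (blue) in DMSO, as deposited, with the line of equal change dotted. All but 4 red and 18 blue genes lie on the side of 0 they had in DMSO.

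The other 3 MYCN lines show how far these differences are those of the WT line. They share the SH-EP libraries as the reference, so their values are given side by side only. The 422 higher genes had a median change against SH-EP of 1.32 in WT and of 1.31, 1.18 and 1.32 in the T58A, S62A and double mutant lines, and the 621 lower genes of -1.42, -1.45, -1.52 and -1.54 in the same order. Among the widest risers the lines were not alike. H19 was at 1108 FPKM in WT and at 984, 289 and 615 FPKM in T58A, S62A and T58A S62A, CDC42EP1 at 20.3 and at 11.6, 1.13 and 26 FPKM, and TUBA1C at 249 and at 313, 28.6 and 239 FPKM.

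Contrasted directly, with SH-EP entering only the filter and the estimate of spread, WT differed from the mean of the other 3 MYCN lines for 2532 genes (21.9%), 1522 (13.1%) higher and 1010 (8.73%) lower. Library 1 of WT, the shallowest of the 3 by relative depth, decided part of this count, which was 1600 without it, 969 higher and 631 lower. With spike-in scaling it was 122, 71 higher and 51 lower. In a fit of only the DMSO libraries of the MYCN lines, over the same genes, it was 1727, 976 higher and 751 lower. WT differed from each of the 3 lines in 1 direction for 441 genes (3.81%), 239 (2.06%) higher and 202 (1.75%) lower. The values below are the log2 differences of WT from T58A, S62A and T58A S62A, in that order.

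DENND3 stood out among the higher genes, at 22.9 ± 2.25 FPKM in WT against 0.553, 0.601 and 0.816 FPKM in the others (5.13, 5.04 and 4.69). SH-EP was at 0.771 ± 0.117 FPKM, so the rise of DENND3 was seen in the WT line and in none of the other 3. HAPLN1, a protein that links hyaluronan to proteoglycans, was at 8.43 ± 0.857 FPKM against 0.525, 2.93 and 0.88 FPKM (3.79, 1.5 and 3.23) and had risen from 0.811 in SH-EP. HOXB2, a homeobox TF of body axis patterning, was at 5.68 ± 1.09 FPKM against 2.16, 0.668 and 2.24 FPKM (1.4, 3.26 and 1.32), and at 0.683 FPKM in SH-EP. GPNMB, a membrane glycoprotein of melanocytes and macrophages, was at 11.9 ± 0.915 FPKM against 2.21, 4.16 and 3.79 FPKM (2.39, 1.51 and 1.64), and so lay between SH-EP, at 25.1 FPKM, and the other lines. NMNAT2, an NAD synthesis enzyme that preserves axons, likewise fell less in WT, from 37.5 to 6.13 FPKM against 3.41, 3.7 and 2.11 FPKM (0.83, 0.71 and 1.5).

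Smaller differences were seen for SERPINI1, the inhibitor neuroserpin (0.76, 1.46 and 0.61), the ribosomal protein paralog RPL22L1 (0.81, 0.63 and 0.88) and the T cell adaptor SH2D2A (0.85, 0.96 and 0.83). The SH-EP libraries were at 23, 21.2 and 26.1 FPKM for SERPINI1, 55.1, 55.4 and 60.9 for RPL22L1 and 10.3, 8.14 and 10.1 for SH2D2A. WT libraries were at 15.7, 17.4 and 22 FPKM, at 92.9, 88.3 and 87.9 and at 8.77, 8.48 and 8.96 in the same order of genes. Of the lower genes, EEF1A2, a translation elongation factor of neurons and muscle, was at 4.0 ± 0.935 FPKM in WT against 7.22, 9.29 and 22.2 FPKM (-0.86, -1.22 and -2.47), all above SH-EP at 1.16. CDK6 was at 25 ± 1.42 FPKM in WT, at 25 ± 1.91 in SH-EP and at 45.9, 39.4 and 41.4 FPKM in the other MYCN lines (-0.88, -0.66 and -0.73). NRP2, a coreceptor for semaphorins and VEGF, was at 13.4 ± 0.52 FPKM against 24.1, 19.8 and 26.4 FPKM (-0.85, -0.56 and -0.98) and at 46.4 in SH-EP.

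KIAA1147 was at 4.12 ± 0.324 FPKM against 6.85, 7.48 and 8.25 FPKM (-0.72, -0.84 and -0.98), and at 2.77, 2.81 and 2.93 FPKM in the SH-EP libraries. TRRAP, a scaffold of acetyltransferase complexes that MYC proteins bind, differed by -0.53, -0.53 and -0.64, and RC3H2, an RNA-binding ubiquitin ligase, by -0.57, -0.54 and -0.52. For TRRAP, SH-EP was at 14.5, 14.5 and 13.5 FPKM and WT at 12.5, 13.1 and 13.2. For RC3H2, SH-EP was at 11.6, 10.8 and 11.1 FPKM and WT at 6.99, 9.73 and 9.68. VOPP1 differed by -0.60, -0.81 and -0.77, but its WT libraries were spread, at 38.3, 13.9 and 32.4 FPKM. The SH-EP libraries were at 42.8, 47.3 and 44.2 FPKM for VOPP1. LCP1 and ISLR, described among the differences from SH-EP, lay outside the 5 FPKM limit set for these genes and are named after their values were seen. LCP1 was at 0.0397 FPKM in WT against 12.6, 0.908 and 80.02 FPKM (-6.51, -2.8 and -9.17), and ISLR at 4.09 against 0.876, 0.39 and 0.588 FPKM (2.13, 3.11 and 2.84).

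**Figure D5:**
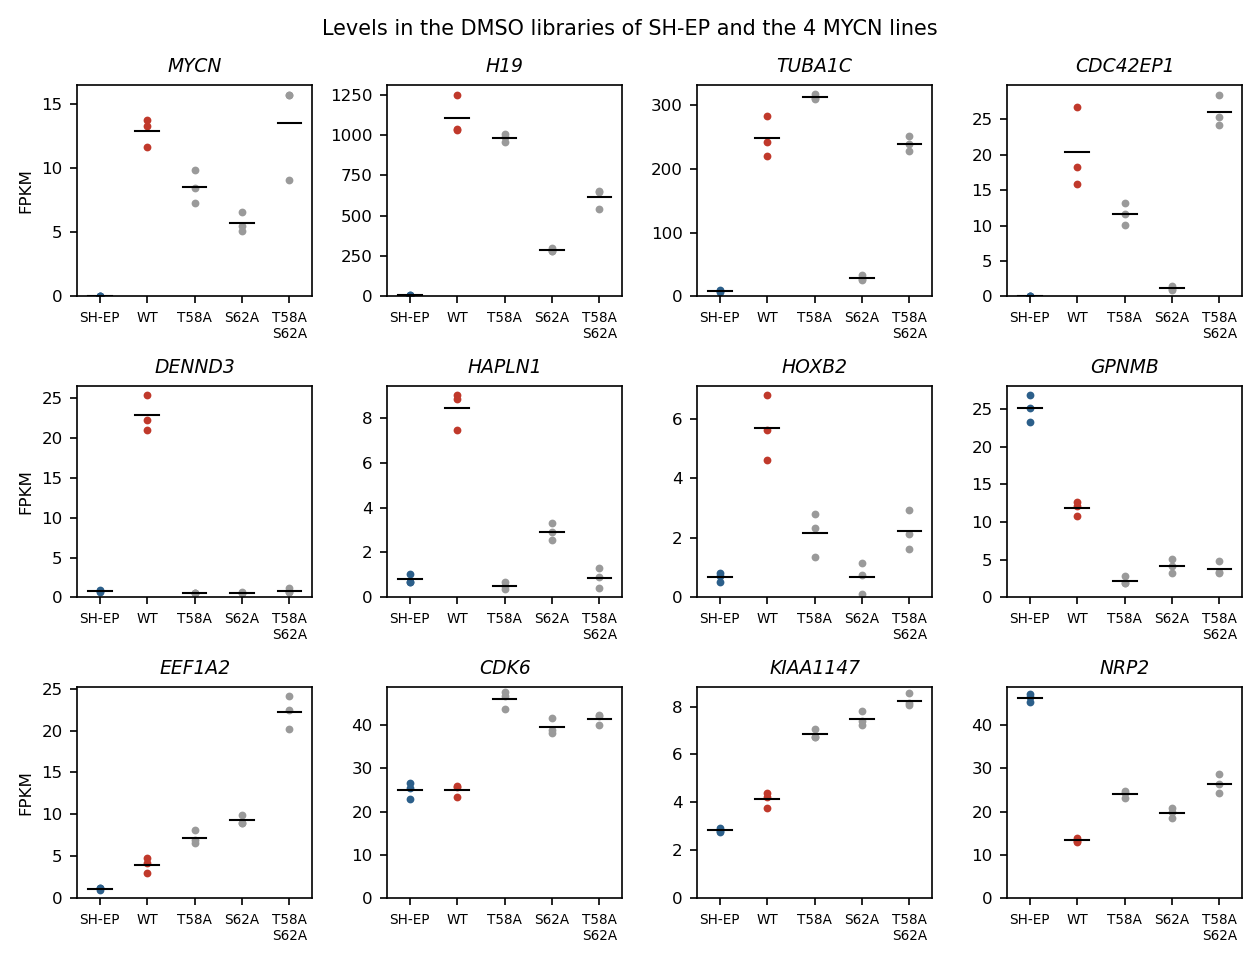
FPKM of 12 genes in the 15 DMSO libraries of SH-EP and the 4 MYCN lines, each panel with its own axis, points for libraries and bars for means. MYCN, H19, TUBA1C and CDC42EP1 are above SH-EP in each MYCN line, DENND3 is high in WT and no other line, and CDK6 is at the SH-EP level in WT but higher in the other 3 MYCN lines.

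Positions were compared across the genome for the 98% of tested genes with a GRCh37 position. Chromosome medians of the change against SH-EP ran from -0.033 on chromosome 1 to 0.17 on chromosome 16, narrow beside the change of single genes. Over 40 consecutive genes, the highest median was 0.58 on chromosome 20, from ATP9A to EEF1A2 (50213053 to 62130592), with 31 genes higher and 3 lower, where with spike-in scaling the median was -0.67. In the T58A, S62A and T58A S62A lines this window had medians of 0.15, 0.67 and 0.15 against the same SH-EP libraries.

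Genes lower in WT than in each other MYCN line gathered on chromosome 7, which holds CDK6, KIAA1147, VOPP1 and TRRAP. Of 552 tested genes there, 52 (9.42%) were of this kind, against 0% to 3.95% on the other chromosomes and 1.75% overall. The median difference of all chromosome 7 genes from the other MYCN lines was -0.11. Chromosome 18, with 152 tested genes, had a lower median of -0.13, and 6 of its genes (3.95%) were of this kind. The chromosome 18 medians against SH-EP were 0.0090 in WT and 0.14, 0.19 and 0.15 in T58A, S62A and T58A S62A. Against SH-EP, the chromosome 7 median was -0.0062 in WT and 0.059, 0.11 and 0.095 in T58A, S62A and T58A S62A. The median of all tested genes in WT was 0.071. The 52 genes, picked for their difference from the other lines, had medians against SH-EP of -0.19 in WT and 0.19, 0.17 and 0.18 in those lines. By these medians, the set lay below the parent in WT and above it in the other 3 lines. Not every gene did so, since KIAA1147 was above SH-EP in WT and CDK6 was level with it. The 40-gene window with the lowest median difference, -0.28, ran from SMO to SLC37A3 (128828474 to 140104233). Its medians against SH-EP were -0.16 in WT and 0.067, 0.16 and 0.12 in the other lines, in the same order. DNA copy number was not measured in these files.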

How the data were processed

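RNA-Seq of 30 libraries in 10 groups of 3 was used, grouped by the labels. Per the labels and the study's methods, the authors spiked ERCC RNAs into each sample in proportion to its cells, prepared stranded poly(A) libraries, mapped them with HISAT2 against hg19 (GRCh37) and derived FPKM from Cufflinks. The annotation is not given in the sources used here. The deposited FPKM values (26228 genes, 92 spike-ins) are not scaled to the spike-ins and keep no read counts, so no count test or counting interval is given. No column was of another sample (0 found).

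The 11575 genes averaging 1 FPKM or more were log2 transformed after adding 0.1 and fitted by limma 3.58.1 (R 4.3.3), in 1 fit of 10 groups (trend = TRUE, robust = FALSE), with two-sided tests and Benjamini-Hochberg adjustment at 0.05. Spike-in scaling equalized the median log2 level of the 55 spike-ins that averaged 1 FPKM or more. Positions are from GENCODE release 44 lifted to GRCh37. The fit was tested on simulated data. The settings varied were the pseudocount (1 and 0.01), the filter (none and 5 FPKM), spike-in scaling, median centering, fits of the compared libraries, leave-one-out and a 1.5-fold limit, and, chosen after seeing the data, small RNAs left out and the CYC065 libraries.

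The comparison and gene lists were chosen with earlier results of these data known. Named genes are core list members, the 3 largest rises and falls of each list, the 15 widest gaps each way at 5 FPKM or more in the higher line, and the 8 genes each way that differ most from each other MYCN line, with at least 5 FPKM in WT for higher genes and in each other line for lower genes, of which some are printed. Neighboring genes are named by position. Some genes that this rule selects, and 1 window, are not reported here.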

Additional observations from a re-analysis of the deposited data

Results flagged for a closer look

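For 25 named genes the effect in the WT line differed from the effect in each of the other 3 MYCN lines by limma's test of each pair. The values are log2 differences from the nearest of those lines. Above each other line were DENND3 by 4.69, ISLR by 2.13, GPNMB by 1.51, HAPLN1 by 1.5, HOXB2 by 1.32, SH2D2A by 0.83, NMNAT2 by 0.71, RPL22L1 by 0.63, SERPINI1 by 0.61, PTPN7 by 0.48, DCN by 0.45, COL5A1 by 0.28, EIF3J by 0.19 and NCL by 0.13. Below each other line, with a log2 difference of -2.8 for LCP1, -0.86 for EEF1A2, -0.72 for KIAA1147, -0.67 for STRA6, -0.66 for CDK6, -0.60 for VOPP1, -0.56 for NRP2, -0.53 for TRRAP, -0.52 for RC3H2, -0.33 for DDR2 and -0.30 for CDKN1A, were the remaining 11. Most were picked for that difference from 441 genes.

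The spike-in RNAs, which are outside the gene comparison, made up a mean of 5.13% ± 1.34 (SD, n = 3) of summed FPKM in the WT libraries and 2.12% ± 0.15 (SD, n = 3) in SH-EP, and the ranges, 3.58% to 6.01% and 1.99% to 2.29%, did not overlap.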

How the results depend on the processing

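No paired analysis was possible because the numbers of the table's columns, 0 to 2, could not be matched to the labels' replicate numbers, 1 to 3, and the replicate block was not run. Spike-in scaling changed most counts. Of genes differing between WT and SH-EP in DMSO it called 10354, 115 higher and 10239 lower, and of genes differing at least 2-fold 7239, 89 higher and 7150 lower. Of genes differing from the mean of the other 3 MYCN lines it called 122, 71 higher and 51 lower. The 2-fold count of 1043 became 544 (247 higher, 297 lower) with the filter at 5 FPKM, 2855 (1488 and 1367) at 1.5-fold and 2099 (998 and 1101) in the CYC065 libraries, with 276 higher at a pseudocount of 1 and 1016 lower without a filter. Leaving out 1 library in turn gave 5725 to 5897 genes against SH-EP and 1008 to 1069 at 2-fold. Against the other MYCN lines it gave 1600 to 2619 genes, 969 to 1587 higher and 631 to 1047 lower, lowest without WT library 1, and the fit of only the libraries compared gave 976 higher. With spike-in scaling the log2 change turned negative for MAX -0.83, MNT -0.48, WDR43 -0.072, NCL -0.13, EEF1E1 -0.16, EIF3J -0.31, PSAT1 -0.36, PAICS -0.36, NME1 -0.37, SMS -0.59, HSPE1 -0.075, GRPEL1 -0.29, NDUFS6 -0.37, SLC16A1 -0.12, LDHB -0.43, GPT2 -0.21, SLC38A1 -0.34, PRIM1 -0.26, AURKA -0.44, AEN -0.20, BAX -0.59, BID -0.13, TPM2 -0.091, SMAD6 -0.24, FOSL1 -0.54, ZNF217 -0.69, GATA2 -0.97, MAB21L2 -0.32 and GCLC -0.050, where the median of all genes moved by -1.24. In the CYC065 libraries the sign turned for HEATR1 0.19, CDKN1A 0.10, SNAI2 0.62, FOSL1 -0.093 and HAND2 0.016, and the cause was not tested. Spike-in scaling left the direction but not the call of CCNE1, CHGB, COL16A1, E2F5, HMOX1, LIN28B, MGP, MXI1, NPM1, ODC1, ROR1 and RRP9 against SH-EP and of RC3H2, SH2D2A, TRRAP and VOPP1 against the other lines, and VOPP1 also lost its call in the fit of only the libraries compared. BAX, CENPF, IRF1, JUN, MEIS2 and ROR1 were not past the threshold with CYC065. GATA2, at the edge of the threshold, lost its call without a filter, with median centering and without 5 of the 6 libraries in turn, S100B with a pseudocount of 0.01 and without WT library 1, and TBX2 without WT library 2 or 3. All other values of named genes followed here, 2364 of them under these alternatives, kept their direction and side of the threshold. CDK6 was followed only against the other MYCN lines, and its change from SH-EP went from 0.0016 to -1.25 with spike-in scaling. Some list medians turned sign. That of the MYC and MAX network, 0.37, was -0.060 at 5 FPKM, that of Notch genes, 0.0083, was -0.13 at 5 FPKM, -0.0030 with median centering and -0.043 to 0.053 leaving out 1 library, and that of cholesterol genes, 0.0019, was -0.0094 with median centering and -0.0078 to 0.023 leaving out 1 library. The NF-κB median was 0.20, and -0.14 with the filter over the libraries compared, and the mean was -0.016 for p53 targets and 0.53 for imprinted genes, against medians of 0.058 and -0.40. Depth is unknown.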
